A study of Arabidopsis thaliana with 10 samples.

Results

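LHCB4.1, LHCB4.2 and LHCB4.3 are the Arabidopsis thaliana genes for the minor antenna protein CP29. They were chosen by gene name, as the probe sets that the array's annotation pairs with these genes and with no other gene. That gave 3 of the 22810 probe sets on the ATH1 array, a single-colour oligonucleotide array, and 3 of the 13286 RefSeq genes with a probe set of their own. LHCB4.1 (AT5G01530, chromosome 5) is read by probe set 251082_at, LHCB4.2 (AT3G08940, chromosome 3) by 258993_at, and LHCB4.3 (AT2G40100, chromosome 2) by 265722_at. Chromosomes are those of RefSeq's TAIR10.1 assembly, and no coordinates are given because the array's annotation names no genome build. Hybridisation of one LHCB4 transcript to the probe set of another was not tested.

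CP29 binds chlorophyll and sits between the photosystem II core and the trimeric outer antenna, where it passes excitation energy inward and takes part in holding photosystem II supercomplexes together. The protein is encoded in the nucleus, imported into the chloroplast and inserted into the thylakoid membrane. Transcripts of light-harvesting genes are known to rise when seedlings turn green, under control of phytochrome photoreceptors and of signals sent from the plastid to the nucleus. LHCB4.1 and LHCB4.2 encode closely similar proteins, while the LHCB4.3 protein lacks a stretch near its C-terminus and its gene is known in Arabidopsis for induction under strong light.

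The study asked what far-red light, given in advance to stop chloroplasts from developing, does to the transcripts of young whole seedlings that bore no true leaves. Each sample was a pool of 300 seedlings kept at 22 °C in continuous light. FR marks seedlings given far-red light before white light, and D marks seedlings given white light with no far-red before it. The sample names write Dpretreated for the latter, and the labels do not spell out D. The 10 arrays were wild type Col-0 (WT_FR and WT_D, 2 arrays each), the gun1,gun5 double mutant (gun1gun5_FR and gun1gun5_D, 2 arrays each) and a phyA-null mutant (phyA_FR and phyA_D, 1 array each). GUN1 acts in signalling from plastid to nucleus, GUN5 is a subunit of the magnesium chelatase of chlorophyll synthesis, and phytochrome A, missing in phyA, is the photoreceptor for continuous far-red light. The medium was not the same in all groups. The labels list 1.5% sucrose for both WT_D samples, and for replicate 2 of WT_D also norflurazon at 5 µM, which blocks the making of carotenoids. They list no sucrose for the other 8 samples, so in wild type the far-red treatment and the absence of sucrose cannot be told apart. In the same way genotype and medium cannot be told apart in any comparison with WT_D, nor in a comparison of another genotype's far-red response with that of wild type.

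The deposited values were probe-set intensities on a linear scale, which the authors had brought to a mean of about 100 per array when the lowest and highest 2% are left out. Array medians lay between 35.6 and 40.4. PHYA, GUN1 and GUN5 had no probe set that the annotation named, so the mutations were not checked here. No label ties the replicates to cultures of their own, and the p-values cover only the spread among these samples, which may be technical. In whole seedlings, fewer green cells and less LHCB4 RNA per green cell cannot be told apart.

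LHCB4.2 and LHCB4.3 were lower after far-red preconditioning in wild type, and LHCB4.1 was not called. LHCB4.2 read 1004.2 and 785.4 on the WT_FR arrays and 2058.4 and 2235.9 on the WT_D arrays. The WT_FR arrays lay well below the WT_D arrays, with a mean of 894.8 ± 155 (SD, n = 2) against 2147.15 ± 126 (SD, n = 2), or 41.7% of the D level. LHCB4.3 read 132.1 and 149.5 on the WT_FR arrays and 414.2 and 568.4 on the WT_D arrays. The groups did not overlap, and the WT_FR mean of 140.8 ± 12.3 (SD, n = 2) was 28.7% of the WT_D mean of 491.3 ± 109 (SD, n = 2). LHCB4.1 read 2796.8 and 2583 on the WT_FR arrays and 2956.1 and 3165 on the WT_D arrays. These arrays did not overlap either, but their means were close, at 2689.9 ± 151 (SD, n = 2) and 3060.55 ± 148 (SD, n = 2), so that the FR level was 87.9% of the D level.

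In limma's linear model of log2(intensity + 16) over all 10 arrays, LHCB4.2 fell by 1.26 on the log2 scale in wild type (SE 0.122, adjusted p = 0.000117). LHCB4.3 fell by 1.68 (SE 0.251, adjusted p = 0.00123). The difference for LHCB4.1 was -0.19 (SE 0.086, adjusted p = 0.154), with a 95% interval from -0.38 to 0.01. Of the 13647 probe sets tested, 12.6% were called lower in WT_FR than in WT_D, against 2 of the 3 LHCB4 genes. A lower difference than that of LHCB4.3 was found for 0.725% of the probe sets tested, than that of LHCB4.2 for 1.83%, and than that of LHCB4.1 for 29.5%. Without WT_D replicate 2, the sample listed with norflurazon, the difference was -1.198 for LHCB4.2 (adjusted p = 0.00187) and -1.46 for LHCB4.3 (adjusted p = 0.0151).

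**Figure D1:**
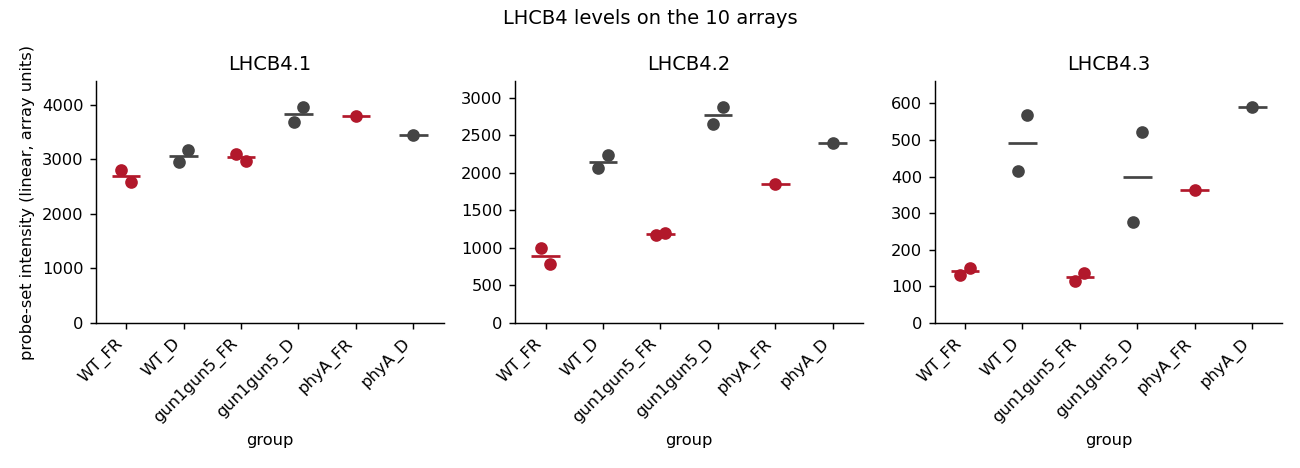
Intensity of the 3 LHCB4 probe sets (vertical axes, linear array units, each with its own scale) on each of the 10 arrays, by group. Points are arrays, red for FR and grey for D, and bars are group means. LHCB4.2 and LHCB4.3 lie lower in the WT_FR and gun1gun5_FR groups than in the matching D groups, while LHCB4.1 stays between 2583 and 3960.1 throughout.

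All 3 genes were called lower after far-red in gun1gun5, where no sample was listed with sucrose. LHCB4.2 read 1165.9 and 1193.6 on the gun1gun5_FR arrays and 2652.9 and 2876 on the gun1gun5_D arrays. The FR arrays sat close together at 1179.75 ± 19.6 (SD, n = 2), which was 42.7% of the D mean of 2764.45 ± 158 (SD, n = 2). LHCB4.3 read 114.7 and 136.6 on the FR arrays and 276.8 and 521.2 on the D arrays. The D arrays lay far apart, with a mean of 399 ± 173 (SD, n = 2), but both stood above the FR arrays, whose mean of 125.65 ± 15.5 (SD, n = 2) was 31.5% of it. LHCB4.1 read 3092.7 and 2977.2 on the FR arrays and 3691.2 and 3960.1 on the D arrays. The FR arrays were again below the D arrays, at 3034.95 ± 81.7 (SD, n = 2) against 3825.65 ± 190 (SD, n = 2), or 79.3% of the D level.

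In the same limma model LHCB4.2 fell by 1.22 in gun1gun5 (SE 0.122, adjusted p = 0.000275). LHCB4.3 fell by 1.49 (SE 0.251, adjusted p = 0.00454), and this call was lost without gun1gun5_FR replicate 1, where the difference was -1.38 (adjusted p = 0.0526). LHCB4.1 fell by 0.33 (SE 0.086, adjusted p = 0.0286). Of all probe sets tested, 8.06% were called lower in gun1gun5_FR than in gun1gun5_D, against 3 of the 3 LHCB4 genes. The LHCB4.1 call was lost when gun1gun5_FR replicate 1, gun1gun5_FR replicate 2 or gun1gun5_D replicate 2 was left out, with differences of -0.36, -0.30 and -0.28.

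LHCB4.1 lay at the bright end of every array, between the 9th and the 34th brightest probe set, and the bright end itself moved between groups. The 99.9th percentile of intensity was 2651 to 2923 on the WT and gun1gun5_FR arrays, 3451 and 3651 on the gun1gun5_D arrays, and 3309 and 3263 on the phyA_FR and phyA_D arrays. Over the 100 probe sets with the highest mean, a number set after values were seen, the median difference of gun1gun5_FR from gun1gun5_D was -0.28, with 89 of them below 0. The LHCB4.1 difference of -0.33 was close to that median. With quantile normalization, which gives all arrays the same distribution, it was -0.02 (adjusted p = 0.878). LHCB4.2 ranged from the 82nd to the 733rd brightest probe set and LHCB4.3 from the 1086th to the 5547th, and their gun1gun5 differences under quantile normalization were -1.08 (adjusted p = 0.000384) and -1.49 (adjusted p = 0.0056).

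In phyA the far-red differences were smaller and none was called, with 1 array on each side. LHCB4.2 read 1856.2 on the phyA_FR array and 2391.4 on the phyA_D array, so that FR was 77.6% of D. LHCB4.3 read 363.2 and 590, or 61.6%. LHCB4.1 read 3798.6 and 3443.6, or 110%, the only one of the 3 genes with a higher FR value. The limma differences were -0.36 for LHCB4.2 (SE 0.172, adjusted p = 0.963), -0.68 for LHCB4.3 (SE 0.355, adjusted p = 0.963) and 0.14 for LHCB4.1 (SE 0.122, adjusted p = 0.974), where the spread of a lone array was taken from that within the replicated groups. In this comparison limma called 0% of the probe sets tested, while 699 of 13647 had an unadjusted p under 0.05. By position among all probe sets, 0.791% had a lower difference than LHCB4.3, 5.86% a lower one than LHCB4.2 and 71.9% a lower one than LHCB4.1.

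**Figure D2:**
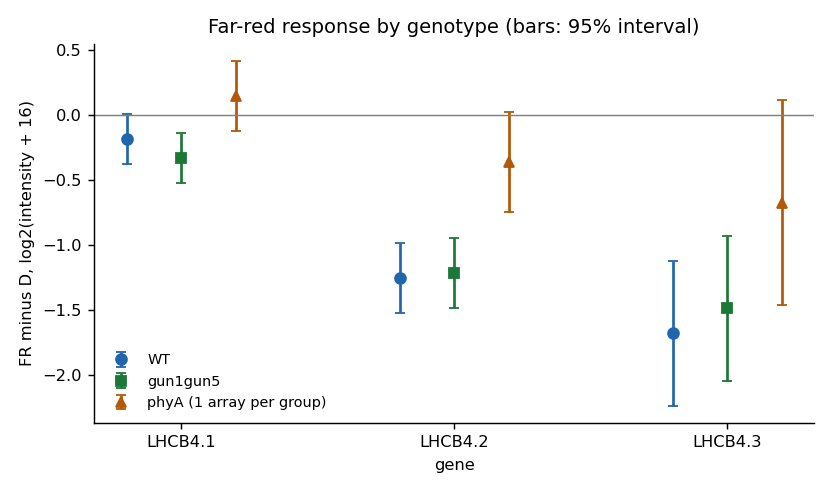
Difference between FR and D (vertical axis, log2 of intensity + 16) for each LHCB4 gene in WT (circles), gun1gun5 (squares) and phyA (triangles), with 95% intervals from the limma model as bars. The WT and gun1gun5 differences lie near each other for each gene, between -1.22 and -1.68 for LHCB4.2 and LHCB4.3, and the phyA differences lie higher with wider bars.

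The far-red responses of WT and gun1gun5 were then compared with each other through the interaction in the limma model. For LHCB4.2 the gun1gun5 response minus the WT response was 0.04, with a 95% interval from -0.34 to 0.42 (adjusted p = 0.944). For LHCB4.3 it was 0.19, with an interval from -0.60 to 0.98 (adjusted p = 0.851), and for LHCB4.1 it was -0.15, with an interval from -0.42 to 0.12 (adjusted p = 0.615). None of the 3 was called, where 2.82% of all probe sets tested were. The intervals leave room for unlike responses, and the small differences do not show that the responses are the same.

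The phyA response of LHCB4.2 was 0.89 above the WT response (SE 0.211), and its unadjusted p of 0.00161 became 0.0673 after adjustment over all probe sets tested in limma. The difference was 1.07 without WT_FR replicate 1 and 1.00 with quantile normalization, and in both it was called. It was called in no other setting, with values of 0.84 under median centring and 0.72 without WT_FR replicate 2. For LHCB4.3 the difference of responses was 1.00 (adjusted p = 0.298), and for LHCB4.1 it was 0.33 (adjusted p = 0.321). In this comparison 1.82% of all probe sets tested were called. Against gun1gun5, where neither genotype had sucrose listed, the phyA response was higher by 0.85 for LHCB4.2 (adjusted p = 0.138), by 0.81 for LHCB4.3 (adjusted p = 0.481) and by 0.47 for LHCB4.1 (adjusted p = 0.233), and 0.528% of all probe sets were called. The LHCB4.3 value was 1.25 without gun1gun5_D replicate 1 and 0.38 without gun1gun5_D replicate 2. Both comparisons use the same 2 phyA arrays. With quantile normalization the LHCB4.1 difference of responses was 0.17 against WT and 0.06 against gun1gun5. The 100 brightest probe sets had median differences of 0.08 and 0.22 in the same order.

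Among seedlings given far-red, the phyA_FR array read higher than both WT_FR arrays for all 3 LHCB4 genes, with no sucrose listed for either group. There was 1 phyA_FR array, so the model took its spread from the replicated WT and gun1gun5 groups, and the spread between phyA samples was not measured. The adjusted p-values therefore set this 1 array against the others and not the genotypes. LHCB4.2 was higher by 1.05 on the log2 scale (limma adjusted p = 0.00167). LHCB4.3 was higher by 1.28 (adjusted p = 0.0224), and this call was lost without WT_FR replicate 1, where the difference was 1.196 (adjusted p = 0.0701). LHCB4.1 was higher by 0.50 (adjusted p = 0.0127). The share of all probe sets called higher in this comparison was 6.97%. The 100 brightest probe sets had a median difference of 0.28 here, and under quantile normalization LHCB4.1 read 0.14 higher (adjusted p = 0.335), while LHCB4.2 and LHCB4.3 read 0.99 (adjusted p = 0.00135) and 1.304 (adjusted p = 0.0221) higher.

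With the same limit, the phyA_FR array was higher than the gun1gun5_FR arrays by 0.65 for LHCB4.2 (limma adjusted p = 0.0165) and by 1.42 for LHCB4.3 (adjusted p = 0.0124). The difference for LHCB4.1 was 0.32 (adjusted p = 0.0623). Of all probe sets tested, 8.77% were called higher. The LHCB4.2 call was lost without either gun1gun5_FR replicate, with differences of 0.63 and 0.66, and the LHCB4.3 call without gun1gun5_FR replicate 1, with a difference of 1.31. The 100 brightest probe sets had a median difference of 0.16 in this comparison. Under quantile normalization LHCB4.1 read only 0.02 higher, while LHCB4.2 and LHCB4.3 read 0.67 and 1.44 higher.

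LHCB4.2 was also higher in gun1gun5_FR than in WT_FR, by 0.40 (limma adjusted p = 0.0412), and both gun1gun5_FR arrays stood above both WT_FR arrays. This call was lost without WT_FR replicate 2, which lowered the difference to 0.23, without gun1gun5_FR replicate 1 (0.42) or without gun1gun5_FR replicate 2 (0.39), and with quantile normalization (0.32, adjusted p = 0.0622). The differences were 0.17 for LHCB4.1 (adjusted p = 0.185) and -0.15 for LHCB4.3 (adjusted p = 0.721). The share of all probe sets called higher was 9.8%.

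Among seedlings without far-red, the 3 genes stood closer together across genotypes. LHCB4.1 was 0.32 higher in gun1gun5_D, with no sucrose listed, than in WT_D, with sucrose (limma adjusted p = 0.0447), a comparison in which 4.06% of all probe sets were called higher. The median of the 100 brightest probe sets was 0.30 there, and the LHCB4.1 difference under quantile normalization was 0.02 (adjusted p = 0.884). Its call was also lost without any one of the WT_D, gun1gun5_D or gun1gun5_FR replicates, with differences from 0.27 to 0.37. LHCB4.2 differed by 0.36 (adjusted p = 0.0922), and under quantile normalization by 0.09 (adjusted p = 0.643). It was called at the value of 0.36 without WT_FR replicate 1 or 2. LHCB4.3 differed by -0.34 (adjusted p = 0.44), or by 0.10 without gun1gun5_D replicate 1.

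The phyA_D array was not called different from WT_D for any of the 3 genes, with differences of 0.17 for LHCB4.1 (limma adjusted p = 0.728), 0.16 for LHCB4.2 (adjusted p = 0.839) and 0.27 for LHCB4.3 (adjusted p = 0.871). Only 0.0586% of all probe sets were called in either direction in that comparison. Against gun1gun5_D the phyA_D differences were -0.15 (adjusted p = 0.436), -0.21 (adjusted p = 0.45) and 0.61 (adjusted p = 0.269) in the same order of genes, where 3.42% were called. The LHCB4.3 difference was 0.17 without gun1gun5_D replicate 1. It was 1.05 without gun1gun5_D replicate 2 and was then called (adjusted p = 0.0392).

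Ordered by group mean, LHCB4.2 ran from WT_FR (894.8) through gun1gun5_FR (1179.75), phyA_FR (1856.2), WT_D (2147.15) and phyA_D (2391.4) to gun1gun5_D (2764.45). All FR groups preceded all D groups, and no neighbouring groups in this order overlapped, although both phyA groups are single arrays. The share of all probe sets ordered in this way was not counted. Under quantile normalization LHCB4.2 differed from WT_D by -0.01 in phyA_D and by 0.09 in gun1gun5_D, so the order of the D groups was not kept. The 100 brightest probe sets had median differences from WT_D of 0.20 in phyA_D and 0.30 in gun1gun5_D. For LHCB4.3 the order was gun1gun5_FR (125.65), WT_FR (140.8), phyA_FR (363.2), gun1gun5_D (399), WT_D (491.3) and phyA_D (590). The gun1gun5_FR and WT_FR arrays overlapped, and the gun1gun5_D arrays overlapped those of WT_D and spanned the phyA_FR value. For LHCB4.1 the order was WT_FR (2689.9), gun1gun5_FR (3034.95), WT_D (3060.55), phyA_D (3443.6), phyA_FR (3798.6) and gun1gun5_D (3825.65). Its gun1gun5_FR and WT_D arrays overlapped and the phyA_FR value lay within the gun1gun5_D arrays, so genotype and pretreatment were mixed along this order. From the lowest to the highest array the span was 1.53-fold for LHCB4.1, 3.66-fold for LHCB4.2 and 5.14-fold for LHCB4.3.

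Whether the 3 genes changed unequally was tested on the log2 ratio of 2 genes within an array, with 4 FR arrays against 4 D arrays of WT and gun1gun5. The ratio of LHCB4.2 to LHCB4.1 was lower after far-red by 0.98, a difference of -1.07 in WT and -0.88 in gun1gun5 (two-sided exact permutation test, p = 0.02857, adjusted over the 3 pairs p = 0.04286). The ratio of LHCB4.3 to LHCB4.1 was lower too, with a difference of -1.33, made up of -1.49 in WT and -1.16 in gun1gun5 (two-sided exact permutation test, p = 0.02857, adjusted p = 0.04286). In both pairs the 4 FR arrays lay below the 4 D arrays, and 0.02857 is the smallest p this test can give. It exchanged arrays freely between the genotypes, so its p-values take no account of genotype. The WT_D arrays in it were listed with sucrose and the WT_FR arrays were not. The pooled p-values are therefore not for far-red alone. For LHCB4.3 over LHCB4.2 the difference was -0.35 and the arrays overlapped (exact permutation test, p = 0.3714), with SDs of 0.39 over the FR arrays and 0.53 over the D arrays. The phyA arrays, which were not in the test, differed by -0.50, -0.82 and -0.31 for the 3 pairs. Such a ratio shows unequal change and not which gene changed, and whether intensity near the top of the array's range follows transcript level as steeply as lower down was not tested.

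**Figure D3:**
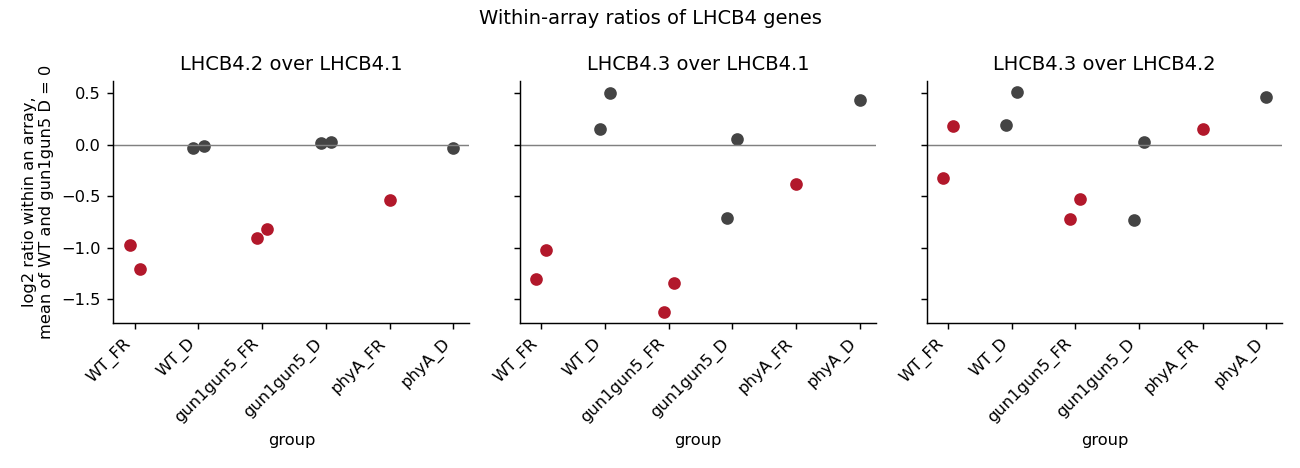
Within-array log2 ratios of the LHCB4 genes (vertical axis, log2, set to 0 at the mean of the 4 D arrays of WT and gun1gun5) by group, each point being 1 array, red for FR and grey for D. For LHCB4.2 over LHCB4.1 the D arrays of all genotypes lie within 0.04 of 0 and the FR arrays of WT and gun1gun5 lie between -1.21 and -0.82, with phyA_FR at -0.54.

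Other genes of the photosynthetic apparatus were read from lists of known members. Over all probe sets tested, 12.6% were called lower and 9.72% higher in WT_FR than in WT_D, and 8.06% lower and 6.38% higher in gun1gun5_FR than in gun1gun5_D. The other antenna proteins (19 genes), the antenna kinases, phosphatases and import factors (9 genes) and the light and plastid signalling regulators (13 genes) had no probe set that the annotation used here pairs with a single gene. They were not analysed here. Of the nuclear subunits of photosystem II, 3 of 14 were measured, and PSBY, a small membrane subunit, fell in both genotypes, by 0.35 in WT (limma adjusted p = 0.0191) and by 0.40 in gun1gun5 (adjusted p = 0.0158). The other 2 were not called, and the list's medians were -0.12 and -0.25, against medians of -0.00678 and -0.00467 over all probe sets tested. Of the nuclear subunits of photosystem I, 2 of 13 were measured. PSAE1, a stromal subunit on the side where ferredoxin docks, fell by 0.69 in gun1gun5 (adjusted p = 0.00607). PSAN, a lumenal subunit, fell by 0.32 there (adjusted p = 0.0486). The WT differences of these 2 genes, -0.33 and -0.24, were not called. All measured nuclear photosystem genes were bright, with mean intensities from 2097 to 2714. The 100 brightest probe sets had median differences of -0.09 in WT and -0.28 in gun1gun5, the latter with 89 of them below 0.

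The plastid-encoded subunits of photosystem II, whose transcripts are made inside the chloroplast, were all measured. In WT 2 of 15 fell, and in gun1gun5 1 of 15, with none called higher in either. These counts are near the shares of all probe sets called lower, 12.6% and 8.06%. The call in gun1gun5 was psbK, which fell by 0.37 (limma adjusted p = 0.0443). The calls in WT, named here after their values were seen, were psbB for a core antenna protein, which fell by 0.56 (adjusted p = 0.016), and psbD for a reaction-centre protein, which fell by 0.47 (adjusted p = 0.0485). In gun1gun5 all 15 differences were below 0, from -0.39 to -0.07 with a median of -0.25. The median was -0.00467 over all probe sets tested and -0.28 over the 100 brightest. Mean intensities of the 15 genes ran from 169 (psbN) to 2607 (psbM), so the 100 brightest do not match them in level.

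Most measured genes of chlorophyll synthesis, which supplies the pigment that CP29 binds, were not called. Of 25 listed genes 9 were measured, and in each genotype 1 rose, 1 fell and 7 were not called, counts near the shares of all probe sets (9.72% higher and 12.6% lower in WT, 6.38% and 8.06% in gun1gun5). HEMA2, a glutamyl-tRNA reductase at the first committed step of tetrapyrrole synthesis, rose by 0.67 in WT (limma adjusted p = 0.00402) and by 0.55 in gun1gun5 (adjusted p = 0.0161). HEME2, a uroporphyrinogen decarboxylase, fell by 0.45 in gun1gun5 (adjusted p = 0.047). CHLP, the geranylgeranyl reductase that makes the phytol chain, fell by 0.29 in WT (adjusted p = 0.0421) and is named after its value was seen.

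**Figure D4:**
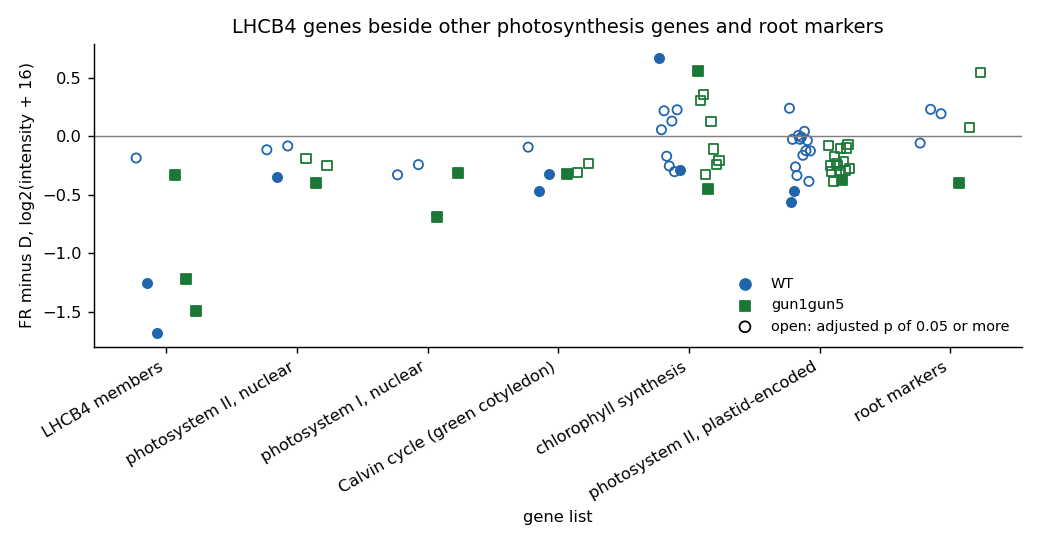
Difference between FR and D (vertical axis, log2 of intensity + 16) for each measured gene of the lists, WT as circles and gun1gun5 as squares, filled where limma's adjusted p was under 0.05. LHCB4.2 and LHCB4.3 lie between -1.22 and -1.68, below every other gene drawn, the lowest of which is PSAE1 in gun1gun5 at -0.69.

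Markers of green and root cells were read beside the LHCB4 genes. Of 6 photosynthesis genes used as markers of green cotyledon tissue, 3 were measured, and these 3 serve the Calvin cycle. In WT 2 of the 3 fell and in gun1gun5 1 of the 3, where 12.6% and 8.06% of all probe sets did. RCA, which encodes Rubisco activase, fell by 0.32 in gun1gun5 (limma adjusted p = 0.025). It is a bright probe set (mean intensity 3055), and the median of the 100 brightest was -0.28 in that comparison. In WT the 2 called genes, named after their values were seen, were SBPASE, which fell by 0.47 (adjusted p = 0.00834), and PRK, which fell by 0.32 (adjusted p = 0.0361). The summed intensity of these 3 markers was 5723 to 5979.5 in WT_FR, 6827.2 to 7226.7 in WT_D, 6893.5 to 7139.3 in gun1gun5_FR and 8195.5 to 9000.9 in gun1gun5_D. It was 7749.5 in phyA_FR and 7740.2 in phyA_D, so the sum was lower after far-red in WT and gun1gun5 and level in phyA. Median far-red differences of the 100 brightest probe sets were -0.09 in WT, -0.28 in gun1gun5 and -0.03 in phyA. Of 7 root markers 3 were measured, and 1, BGLU23 (the root beta-glucosidase PYK10), fell, by 0.40 in gun1gun5 (adjusted p = 0.0207). That fall too stands beside the median of -0.28 at the bright end. The gun1gun5 differences of the other 2 were above 0 and not called, at 0.55 for PRX45 and 0.07 for EXPA7, and in WT none of the 3 was called. The summed level of the 3 root markers, nearly all of it BGLU23 (mean intensity 2739, against 85.0 for PRX45 and 38.4 for EXPA7), was 2683.8 to 2789.4 in WT_FR, 2736.9 to 2909.3 in WT_D, 2308.7 to 2466.7 in gun1gun5_FR, 2895.4 to 3239.7 in gun1gun5_D, 3236.2 in phyA_FR and 3353.6 in phyA_D. The part of tissue make-up in the LHCB4 differences was not tested. The 4 epidermis and 6 seed reserve markers were not analysed here, since the annotation names no probe set for them.

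The genes whose profiles over the 10 arrays were most like each LHCB4 gene were taken by Pearson's r of log2 values among 7376 single-gene probe sets. Those points share 6 groups, so r largely restates the group means and is given as a description. For LHCB4.1 they were RCA (r = 0.971), AT3G14595 (0.966), PSBY (0.958), AT3G30390 (0.954) and AT2G45180 (0.953). For LHCB4.2 they were AT4G31140 (r = 0.986), AT1G52220 (0.983), listed by RefSeq as CURT1C for thylakoid curvature, AT2G40460 (0.98), AFR (0.975), an F-box protein named for an attenuated far-red response in its mutant, and AT5G18970 (0.974). For LHCB4.3 they were AT4G30450 (r = 0.979), PMEAMT (0.975), a phosphoethanolamine methyltransferase, AT1G49580 (0.971), AT2G42220 (0.971) and AT4G24780 (0.969). No gene was on more than 1 of these lists. With quantile normalization 0 of the 5 genes for LHCB4.1 stayed among its closest 5, against 2 for LHCB4.2 and 4 for LHCB4.3. Among themselves the LHCB4 genes correlated at r = 0.865 (LHCB4.2 with LHCB4.3), 0.827 (LHCB4.1 with LHCB4.2) and 0.611 (LHCB4.1 with LHCB4.3).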

How the data were processed

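Linear intensity values of ATH1 probe sets were deposited by the authors, scaled per array. The summarisation software is not given in the sources used here. Probe sets were named from the platform annotation, with symbols from RefSeq (TAIR10.1). Of 22810 probe sets, 13513 matched 1 gene.

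Values were taken as log2(intensity + 16). Probe sets with a mean above the 40th percentile (log2 level 5.35) were tested, which left 13647, all 3 LHCB4 probe sets among them. Group means of the 6 groups were modelled in limma 3.58.1 (R 4.3.3) with a variance trend (4 residual and 6.3 prior degrees of freedom). Tests were two-sided, and Benjamini-Hochberg adjustment ran over all tested probe sets per comparison. A call is an adjusted p under 0.05, and "rose" and "fell" refer to calls. The scripts were tested on simulated data. Folds in percent are ratios of intensities, while log2 differences carry the added 16 and run smaller for low values. Exact permutation tests used scipy 1.17.1.

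The LHCB4 genes, the gene lists and the tests were chosen with earlier results of these data known. Genes named from a list are up to 4 called in gun1gun5, plus the 5 most alike per LHCB4 gene. Other genes are marked as named after their values were seen. A count of promoter motifs was planned and not run, and no sequence is shown. Same-numbered replicates correlated at 0.0642 to 0.187 in their deviations from group means, and the labels tie no batch to the numbers, so the numbers were not taken as pairs. The number of arrays limits the precision.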

Additional observations from a re-analysis of the deposited data

How the results depend on the processing

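The alternatives were pseudocounts of 1 and 64, quantile normalization, median centring, dropping the filter or raising it to the 60th percentile, dropping the variance trend, fitting the compared groups only (not run for phyA_FR against phyA_D, where no residual degrees of freedom remain), the replicate number as a block, and each replicate left out. Of the values recomputed for the LHCB4 genes and their ratios, 576 kept direction and side of the threshold, 52 lost a call, 8 gained one and 9 changed sign. The WT calls of LHCB4.2 and LHCB4.3 and the gun1gun5 call of LHCB4.2 held in all that were run. The causes of the changes were not tested unless given. With quantile normalization LHCB4.1 was -0.0217 (gun1gun5_FR against gun1gun5_D), 0.10 (gun1gun5 against WT response), 0.0215 (gun1gun5_D against WT_D), 0.14 (phyA_FR against WT_FR) and -0.0260 (phyA_D against WT_D), and LHCB4.2 was 1.00 (phyA against WT response, called), 0.32 (gun1gun5_FR against WT_FR) and -0.0111 (phyA_D against WT_D). With a pseudocount of 1, LHCB4.1 in gun1gun5_D against WT_D was 0.32 (adjusted p = 0.0504). Without the filter, more probe sets were tested and calls were lost at unchanged values for LHCB4.1 (-0.33 for gun1gun5_FR against gun1gun5_D, 0.32 for gun1gun5_D against WT_D, 0.50 for phyA_FR against WT_FR), LHCB4.2 (0.40 for gun1gun5_FR against WT_FR, 0.65 for phyA_FR against gun1gun5_FR) and LHCB4.3 (1.28 and 1.42 for phyA_FR against WT_FR and gun1gun5_FR). Without the variance trend the first 3 of these and the 0.40 were lost, and with the compared groups only 0.40, 0.32 and 0.50. LHCB4.1 in phyA_FR against gun1gun5_FR, 0.32, was called with the 60th percentile filter and with the compared groups only. With quantile normalization that difference was 0.0172 and was not called. With the replicate block, LHCB4.3 in phyA_D against gun1gun5_D was 0.82 and called (adjusted p = 0.0435), and no other LHCB4 call changed. The block raised the calls over all probe sets in that comparison from 467 to 1289. Leaving out single replicates gave ranges of -0.38 to -0.28 (LHCB4.1) and -1.93 to -1.05 (LHCB4.3) for gun1gun5_FR against gun1gun5_D. The gun1gun5 against WT response ranged over -0.13 to 0.21 (LHCB4.2) and -0.25 to 0.63 (LHCB4.3), and the phyA against WT response of LHCB4.2 over 0.72 to 1.07. For gun1gun5_FR against WT_FR, LHCB4.2 ranged over 0.23 to 0.58. For gun1gun5_D against WT_D the ranges were 0.27 to 0.37 (LHCB4.1), 0.30 to 0.42 (LHCB4.2) and -0.78 to 0.10 (LHCB4.3). For phyA_FR against WT_FR, LHCB4.3 ranged over 1.196 to 1.356, and against gun1gun5_FR the ranges were 0.63 to 0.66 (LHCB4.2) and 1.31 to 1.54 (LHCB4.3). LHCB4.3 in phyA_D against gun1gun5_D ranged over 0.17 to 1.05. The ratio differences ranged over -1.03 to -0.90 (LHCB4.2 over LHCB4.1) and -1.56 to -1.16 (LHCB4.3 over LHCB4.1). Each adjusted p of the exact permutation test was then 0.08571, with 4 arrays against 3. That test cannot give a p under 0.05 with so few arrays, so these calls could not hold. They are counted among the 52 lost. Calls over all probe sets were 3053 for WT and 1970 for gun1gun5, and 1838 to 3071 and 506 to 2160 with a replicate left out. Without the filter gun1gun5 had 1251. Counts moved by over 1.5 times also in the other comparisons, as with no filter for the gun1gun5 against WT response (385 to 207), the phyA against WT response (248 to 66), the phyA against gun1gun5 response (72 to 15), gun1gun5_D against WT_D (1255 to 584) and phyA_D against gun1gun5_D (467 to 163). With a replicate left out the lowest counts were 149, 131, 19, 273 and 122 in the same order, 974 of 2751 for gun1gun5_FR against WT_FR and 846 of 2198 for phyA_FR against gun1gun5_FR. With the compared groups only, phyA_FR against WT_FR fell from 1722 to 942 and phyA_FR against gun1gun5_FR went from 2198 to 3815. For phyA_D against WT_D, 8 calls became 3 to 153.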

Other observations

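The WT_D sample listed with norflurazon (replicate 2) read higher than WT_D replicate 1 for all 3 LHCB4 genes, by 0.10 for LHCB4.1, 0.12 for LHCB4.2 and 0.44 for LHCB4.3 on the log2 scale. Of the 8 nuclear photosynthesis genes measured from the lists, 7 were also higher there, with a median of 0.11. Between the 2 gun1gun5_D arrays, neither of which was listed with norflurazon, replicate 2 was higher than replicate 1 by 0.10, 0.12 and 0.88 for the 3 LHCB4 genes and for 8 of the same 8 genes, with a median of 0.094. In the FR groups the same 8 genes were split, with 3 higher in replicate 2 in WT_FR and 3 in gun1gun5_FR, beside 7165 and 6909 of all 13647. There LHCB4.1 differed by -0.11 in WT_FR and -0.05 in gun1gun5_FR, LHCB4.2 by -0.35 and 0.03, and LHCB4.3 by 0.16 and 0.22, so that LHCB4.3 was higher in replicate 2 in all 4 replicated groups. The difference of the array listed with norflurazon was not tested.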
